A study of Mus musculus with 2 samples.

Results

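Messenger RNA of 10 genes of iron uptake, storage, export and sensing was compared between denervated and control gastrocnemius, a mostly fast-fibre calf muscle. The genes are Tfrc, Trf, Steap3 and Slc11a2 (uptake), Fth1 and Ftl1 (storage), Slc40a1 and Cp (export), and Aco1 and Ireb2 (sensing). They were taken by name: every non-control probe present on both arrays counted as a member's probe when its listed gene name, or the current symbol of its listed transcript, was one of the 10. This gave 16 probes for the 10 genes, out of 41174 probes and 22157 gene symbols on the array. Of the genes, 6 had a single probe, so most values rest on 1 probe.

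The denervated group was male C57BL/6 mice whose muscle had been without its nerve for 14 days, from 7 weeks of age, and which were sampled at 9 weeks. The control group was male C57BL/6 mice of 9 weeks. One label calls it a sham control and others only a control, so whether these mice were operated on is not settled. RNA of 6 mice was pooled for each group and each pool went onto 1 array. There is therefore no replicate check and no p-value, and every value describes these 2 pools. The RNA came from the whole muscle, in which fewer cells of a type and less RNA per cell cannot be told apart.

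Cells take up iron mainly as transferrin, the plasma iron carrier encoded by Trf, which binds the transferrin receptor (Tfrc) and is drawn into endosomes. There the iron is reduced by Steap3 and passed to the cytosol through the divalent metal transporter encoded by Slc11a2. Iron that is not used is stored inside ferritin shells made of heavy (Fth1) and light (Ftl1) chains or leaves through ferroportin (Slc40a1), with oxidation by ceruloplasmin (Cp). The iron regulatory proteins, encoded by Aco1 and Ireb2, bind RNA hairpins in several of these transcripts when iron is scarce, which protects the Tfrc message and blocks translation of the ferritins. Muscle holds much iron in myoglobin and in mitochondria.

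Tfrc had by far the largest difference and was lower in the denervated pool, Slc40a1 was also lower, and the ferritin light chain gene Ftl1 was higher. Differences are log2 values, denervated minus control, after each array was divided by its own 75th percentile, 788 for the control pool and 1063 for the denervated pool. The value after ± is the scanner software's technical error of 1 array against the other, not the spread between mice. All 10 genes were measured, meaning that at least 1 of their probes was clearly brighter than background in both pools without saturating. Of the 10, 1 was higher by 2-fold or more (Ftl1), 2 were lower by as much (Tfrc and Slc40a1) and 7 lay within 2-fold. Over all 15739 measured genes, 6.92% were higher and 8.58% lower by that much, so the 1 of 10 and 2 of 10 are read gene by gene and not as a property of the list. The median of the 10 genes was -0.12 and that of all measured genes was -0.11.

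**Figure D1:**
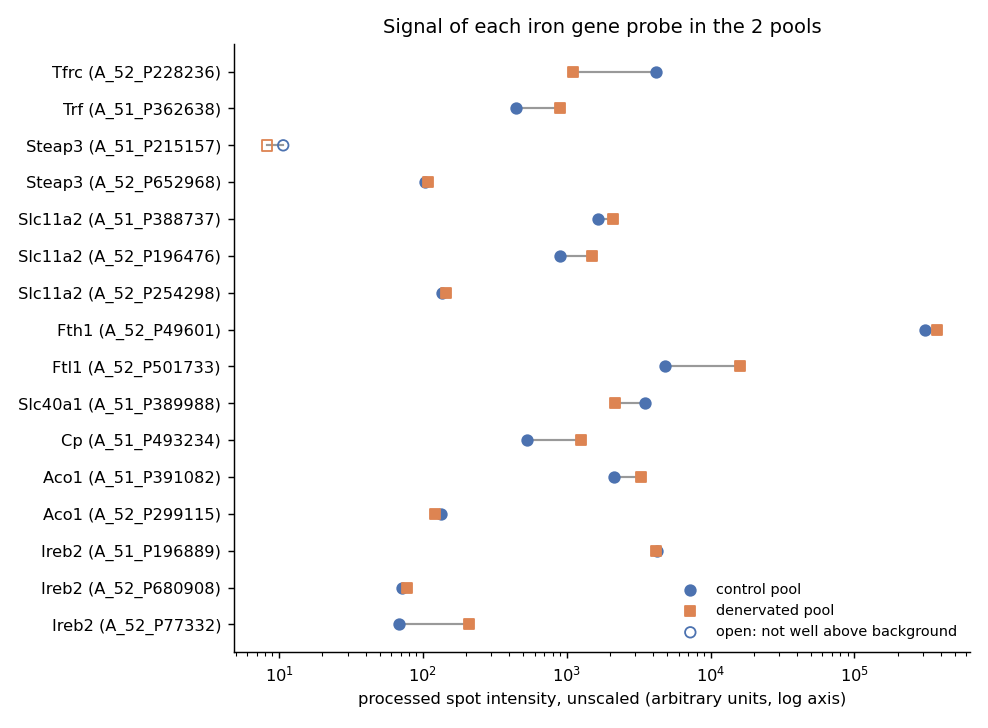
Processed spot intensity of each iron gene probe (log axis, unscaled, arbitrary units) in the control pool (circles) and the denervated pool (squares), 1 array each, joined by a line. Tfrc runs from 4163 down to 1102 and Ftl1 from 4849 up to 15913; signals of different probes are not comparable as levels, and the open symbols mark the Steap3 probe that was not well above background.

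Uptake was led by the receptor. Tfrc was measured by a single probe (transcript NM_011638, probe at chr16:32551916-32551975 on the mm8 assembly, plus strand) that was printed on 10 spots of each array. Its spot intensities ran from 3975 to 4364 with a median of 4219 on the control array, and from 1022 to 1208 with a median of 1100 on the denervated array. No control spot came near a denervated one: the dimmest control spot was 3.29 times the brightest denervated spot, before scaling. The scaled log2 signal was 2.40 in the controls and 0.05 after denervation, a difference of -2.35 ± 0.20, or 5.1-fold lower. Over the 10 spots the difference lay between -2.44 and -2.23, with an SD of 0.07. These spots repeat the same RNA and the same probe, so they give the precision of the array alone. Of the 15739 measured genes, 156 had a lower value. With scaling to the spike-in controls, synthetic RNAs added to each sample, the difference was -1.95.

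**Figure D2:**
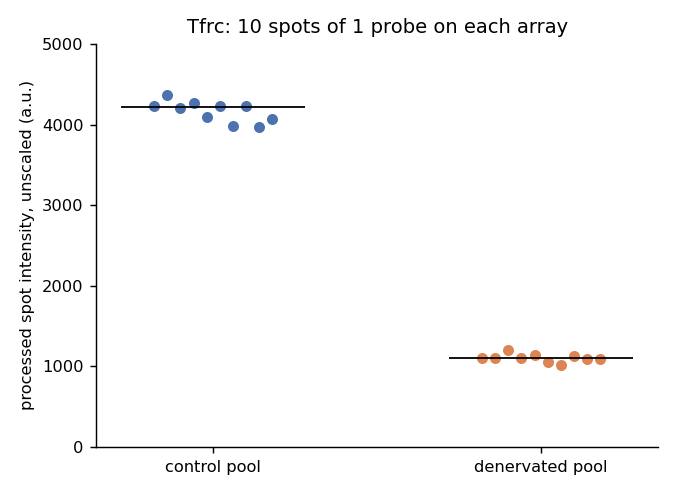
Unscaled processed intensity of the 10 spots of the Tfrc probe in the control and the denervated pool, with the median of each as a line, on an axis that starts at 0. The control spots lie between 3975 and 4364 and the denervated spots between 1022 and 1208, with no overlap.

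Sequence upstream of Tfrc is shown because it is the member with the largest difference and because hypoxia-inducible factors are known to act on this gene. RefSeq (GRCm38.p6) lists more than 1 start for Tfrc. The letters ACGTG, the core of a hypoxia response element, were searched on both strands in the 250 bases before each start. They were found 228 bases before the start at position 32609122. They are in capitals in this stretch of 30 bases at chr16:32608882-32608911, plus strand. The capital letters themselves lie across another listed start, at 32608896, so they are not wholly upstream of that start.

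Tfrc: ctcggtaggtgtACGTGcggaaggaagtga

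The same 5 letters stand in 16.6% of all 32851 promoter windows of that length in the table, so the match is a description of the sequence and not of a site in use. None of the other windows of the 7 members in the table held it whole, and the window before the Tfrc start at 32608896 ends inside it. Trf, Slc40a1 and Slc11a2 are not among these 7.

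Trf, which encodes the carrier that the receptor binds, went the other way. Its signal was 445 with control RNA and 894 with denervated RNA (NM_133977, chr9:103073389-103074004 on mm8, minus strand). The listed position covers 616 bases where the other placed probes cover 60. On the scaled log2 axis the values were -0.83 and -0.25, a difference of 0.58 ± 0.20 or 1.49-fold, larger than its technical error but under 2-fold. Without any scaling it was 1.01, and it was positive under all 12 alternative processings. The gap between Trf and Tfrc, which no rescaling of a whole array can alter, was 2.92 ± 0.29 (7.59-fold). It lay between 2.76 and 2.96 over the alternatives.

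Trf is made in quantity by liver and also by myelinating cells, so markers of both were read beside it. Of 9 hepatocyte markers, 6 (Alb, Apoa1, Ttr, Fga, Fgb and Fgg) were not well above background on either array, Ahsg was detected on the denervated array only, and both measured ones were lower (Apoh at -1.83 ± 0.28 and Cyp2e1 at -1.19 ± 0.21). Of 12 Schwann cell and myelin markers, 9 were below 0, 5 of them past 2-fold, with a median of -0.69, while the probes of Ngfr gave 2.47 ± 0.21 and -0.16. Their summed signal before scaling was 12111 for the control RNA and 9376 after denervation, a scaled log2 ratio of -0.80. The part of either cell type in the Trf value was not tested.

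The 2 genes that act inside the endosome were close to the middle of the array. Steap3, the ferrireductase, gave 103 and 108 by the probe for AY214462 (chr1:122054794-122054853 on mm8, minus strand), a difference of -0.37 ± 0.22. With spike-in scaling it was 0.03, so its direction is not settled. Another Steap3 probe, for NM_133186, stayed at background in both pools (10.7 and 8.27). Slc11a2, the divalent metal transporter, had 3 measured probes on chromosome 15 with no common direction. The probe taken for the gene gave 1649 and 2100 (chr15:100215936-100215995, -0.08 ± 0.20), another, for the cDNA clone AK148276, gave 894 and 1488 (chr15:100220950-100221009, 0.30 ± 0.20), and the dimmest gave 135 and 146 (chr15:100238119-100238178, -0.32 ± 0.21). Under 2 of the 12 alternatives, spike-in scaling and no scaling, the first of these turned positive (0.31 and 0.35).

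Storage differed between the 2 ferritin chains. Ftl1, the light chain that aids mineral formation in the shell, gave 4849 for control RNA and 15913 for denervated RNA (NM_010240, chr7:45327649-45327708 on mm8, minus strand). Its scaled log2 signal was 2.62 and 3.90, a difference of 1.28 ± 0.20 or 2.43-fold higher, and it stayed past 2-fold under all 12 alternatives (1.28 to 1.71). Of all measured genes, 704 had a higher value. A probe listed as Ftl2, ferritin light chain 2, a close relative outside the 10 genes that was looked up after the Ftl1 value was seen, gave 7593 and 25349 (1.31 ± 0.20; NM_008049, chr13:74872688-74872747 on mm8). Whether either probe also binds the other gene's transcript was not tested, so the values are not counted as independent.

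Fth1, the heavy chain that oxidises iron on entry, gave 310453 and 375230 (NM_010239, chr19:10052040-10052099 on mm8, plus strand). Its spots were bright but not saturated on either array. Scaled log2 values were 8.62 and 8.46, a difference of -0.16 ± 0.20 that is smaller than its technical error. The sign turned positive under 4 of the 12 alternatives, up to 0.30 with quantile normalization, so no direction is given for Fth1. The gap between Ftl1 and Fth1 was 1.44 ± 0.29 (2.72-fold); over the alternatives it was at most 1.55, and about 2-fold at its lowest (quantile normalization). The gap between Ftl1 and Tfrc was 3.63 ± 0.29 (12.4-fold) and hardly moved, from 3.59 to 3.66. In these 2 pools the light chain signal was thus higher after denervation relative to both the heavy chain and the receptor.

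The ferritin promoters are shown because the 2 chains, which build the same shell, differed here. The following stretches are the 120 bases before the RefSeq start of Ftl1 (chr7:45459887-45460006, minus strand) and before the downstream RefSeq start of Fth1 (chr19:9982526-9982645, plus strand), both on GRCm38.p6 and written along the gene's own strand. Capitals mark CCAAT read on the opposite strand, the letters of the box that the factor NF-Y binds.

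Ftl1: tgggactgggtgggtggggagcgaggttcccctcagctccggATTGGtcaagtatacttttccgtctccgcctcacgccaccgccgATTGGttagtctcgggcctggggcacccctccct

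Fth1: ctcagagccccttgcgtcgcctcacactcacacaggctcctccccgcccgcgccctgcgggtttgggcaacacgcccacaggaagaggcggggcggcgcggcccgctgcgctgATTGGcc

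The letters were found 78 and 34 bases before the Ftl1 start and 7 bases before this Fth1 start. Of all windows of 250 bases, 33.8% held them on either strand. The core of the antioxidant response element (TGACNNNGC, both strands), to which ferritin genes are known to respond, was in none of these 7 members' windows and in 10.2% of all windows. The loop letters of the iron-responsive element, a C, any 5 bases and then CAGTGN, were searched on the transcript strand in the first 50 transcribed bases. They were in none of the 13 windows of the 7 members that the table holds, and in 1.55% of all windows. No match says only that these letters are not in these stretches.

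Of the export genes, the transporter was lower and its oxidase higher, each past 2-fold under some scalings only. Slc40a1, encoding ferroportin, the iron exporter of the cell surface, gave 3528 for control RNA and 2152 for denervated RNA (NM_016917, chr1:45852956-45853015 on mm8, minus strand). Scaled log2 values were 2.16 and 1.02, a difference of -1.15 ± 0.20 or 2.21-fold lower, and 1010 of the measured genes were lower still. The call depends on the scaling: the difference was -0.75 with spike-in scaling and -0.71 unscaled, both under 2-fold, and it was negative under all 12 alternatives. Cp, the copper oxidase that loads exported iron onto transferrin, gave 527 and 1267 (NM_007752, chr3:20181226-20181285 on mm8, plus strand). Its scaled values were -0.58 and 0.25, a difference of 0.83 ± 0.20 or 1.78-fold, and it passed 2-fold with spike-in scaling (1.23) and without scaling (1.27). The gap between Cp and Slc40a1 was 1.98 ± 0.29 (3.94-fold), and at least 1.82 over the alternatives.

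**Figure D3:**
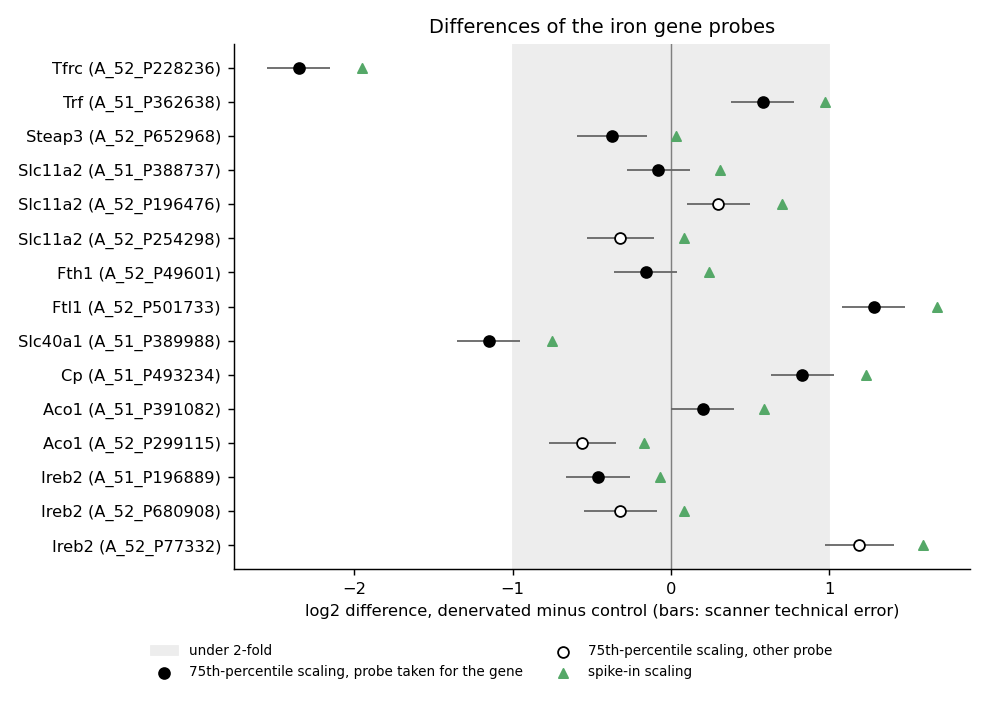
Log2 difference, denervated minus control, of each measured iron gene probe with 75th-percentile scaling (circles, filled for the probe taken for the gene, with the scanner's technical error as bars) and with spike-in scaling (triangles); the grey band is under 2-fold. Tfrc at -2.35 lies far to the left, Ftl1 at 1.28 to the right, and the 3 Ireb2 probes lie on both sides of 0.

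The sensors had no settled direction. Aco1, which encodes iron regulatory protein 1, a cytosolic aconitase when it carries an iron-sulphur cluster, had 2 probes for NM_007386. The brighter gave 2122 and 3281 (chr4:40386755-40386814 on mm8, plus strand, 0.20 ± 0.20), and the other gave 134 and 122 (chr4:40387321-40387380, -0.56 ± 0.21). Their mean was -0.18, so its direction also turns on the probe.

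Ireb2, which encodes iron regulatory protein 2, had 3 measured probes, all on the plus strand of chromosome 9 in mm8. The brightest, for the cDNA clone AK034218, gave 4279 and 4191 (chr9:54710314-54710373, -0.46 ± 0.20). The probes for NM_022655 gave 71.9 and 77.7 (chr9:54682170-54682229, -0.32 ± 0.23) and 67.8 and 209 (chr9:54706896-54706955, 1.19 ± 0.22). The last of these was past 2-fold higher while the others were below 0, and their mean was 0.14. For this gene the choice of probe sets the sign, and which transcript forms the probes reach was not tested. The gap between Aco1 and Ireb2 was 0.66 ± 0.29 and ran from -0.32 to 0.69 over the alternatives. The mm8 annotation is not used here, so no probe is placed in an exon or untranslated region.

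**Figure D4:**
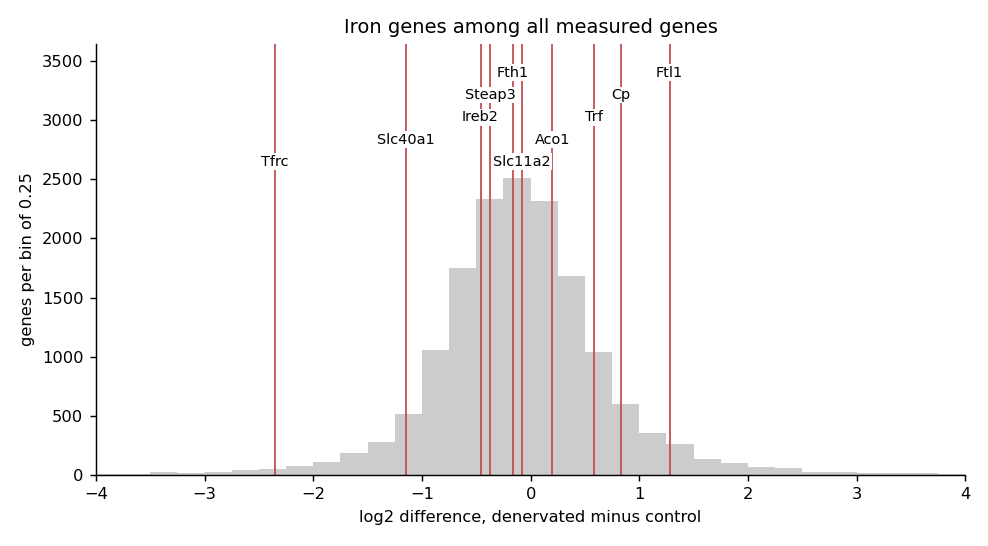
Number of genes per bin of log2 difference, denervated minus control, over the 15739 measured genes (grey bars, genes beyond 4 in either direction outside the plotted range), with each of the 10 iron genes as a red line. Tfrc at -2.35 lies in the thin left tail with 156 genes below it, while 7 of the 10 lie within 2-fold.

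Another 93 genes of iron biology in 5 lists were read beside the 10, of which 89 had a probe and 82 were measured. Of these 82 genes, 6 (7.32%) were past 2-fold on the higher side and 3 (3.66%) on the lower side, against 6.92% and 8.58% of all measured genes, with a median of -0.08. With spike-in scaling 13 were past it on the higher side and 0 on the lower, where all genes had 14.4% and 4.16%.

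In the list of other uptake and intracellular transport genes, 3 of 15 measured genes passed 2-fold, all on the higher side (median 0.02). Lcn2, a siderophore-binding protein of the innate immune system, went from 23.1 to 179 (2.52 ± 0.31, or 0.88 with normexp background correction). Slc11a1, the phagosomal metal transporter of macrophages, went from 318 to 1063 (1.31 ± 0.20), and Cd163, the macrophage receptor for haemoglobin bound to haptoglobin, from 623 to 1858 (1.14 ± 0.20). Those 3 genes are known from myeloid or inflamed tissue. Which cell type their higher values came from was not tested. Steap1 and Ltf, named after their values were seen, were detected on the denervated array only, where they were at least 3.19-fold and at least 1.1-fold higher. Their denervated signals were dim (62.4 and 21.6), and no bounds with normexp background correction are given. Tfr2, the other transferrin receptor, and Steap2 were at background in both pools.

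Of the 8 measured genes of storage, ferritin turnover and export, none passed 2-fold in either direction (median 0.18). By the probe taken for each gene, the largest differences were those of Pcbp1, a chaperone that delivers iron to ferritin (34225 and 72412, 0.65 ± 0.20), Heph, the membrane-bound relative of ceruloplasmin (66.6 and 57.9, -0.64 ± 0.24), and Pcbp3 (192 and 384, 0.57 ± 0.21). With spike-in scaling Pcbp1 passed 2-fold (1.05). The 3 probes of Pcbp2, named after its values were seen, ran from -1.29, past 2-fold lower, to -0.28.

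In the hepcidin and iron sensing list, 1 of 17 measured genes passed 2-fold, on the higher side, and 13 were below 0 (median -0.28, or 0.12 with spike-in scaling). The higher one was Erfe, the hormone erythroferrone that lowers hepcidin, from 20.2 to 116 (2.08 ± 0.33). Its control signal was dim, and with normexp background correction the difference was 0.52, under 2-fold. Hamp2, a hepcidin copy, was just under 2-fold at 53 and 143, but at 0.35 with normexp background correction. Hamp itself was at background in both pools. Tmprss6, the protease that cuts hemojuvelin, was detected on the denervated array only (8.6 and 68.7, at least 3.51-fold higher). It was named once its value was known, its signals were dim, and no bound with normexp background correction is given. Neo1, a co-receptor with hemojuvelin, stood at 0.98 ± 0.20, with its other probes down to -0.37. Fbxl5, the ligase subunit that removes iron regulatory protein 2 when iron is plentiful, named once its value was known, was at -0.94 ± 0.20 with 3 probes between -0.97 and -0.43.

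Mitochondrial iron and iron-sulphur cluster genes had 3 of 28 measured genes past 2-fold on the lower side and 1 on the higher (median -0.14). The lower ones were Isca1, a late cluster assembly factor (57530 and 35340, -1.13 ± 0.20), the ferredoxin gene Fdx1 (19247 and 11979, -1.12 ± 0.20) and Bola3 (50241 and 32065, -1.08 ± 0.20). Every Isca1 probe (-1.23 to -1.02) and every Fdx1 probe (-1.19 to -1.05) passed 2-fold, but with spike-in scaling the gene values were -0.74, -0.72 and -0.68. Nubp1, a cytosolic cluster scaffold, stood at 1.67 ± 0.20 by the probe taken for it and at 0.57 by its other probe.

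Of 14 measured genes of haem synthesis, breakdown and scavenging, only 1 passed 2-fold, on the higher side (median -0.05). Hmox1, the inducible haem oxygenase that frees iron from haem, went from 827 to 5279 (2.24 ± 0.20), while its constitutive relative Hmox2 gave 5437 and 6888 (-0.09 ± 0.20; named after its value was seen). Alas1, the rate-limiting enzyme of haem synthesis outside the red cell line, stood at -0.80 ± 0.20, and the last enzyme, Fech, at -0.54 ± 0.20. Hpx, the plasma haem scavenger, was detected on the control array only (29 and 18.5), and is likewise named after its value was seen. Scaled as the other values here, it was at least 2.11-fold lower after denervation. Spike-in scaling and no scaling move every difference upward, so this bound does not carry over to them. Its signals were dim, and no bound is given for those scalings or for normexp background correction.

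**Figure D5:**
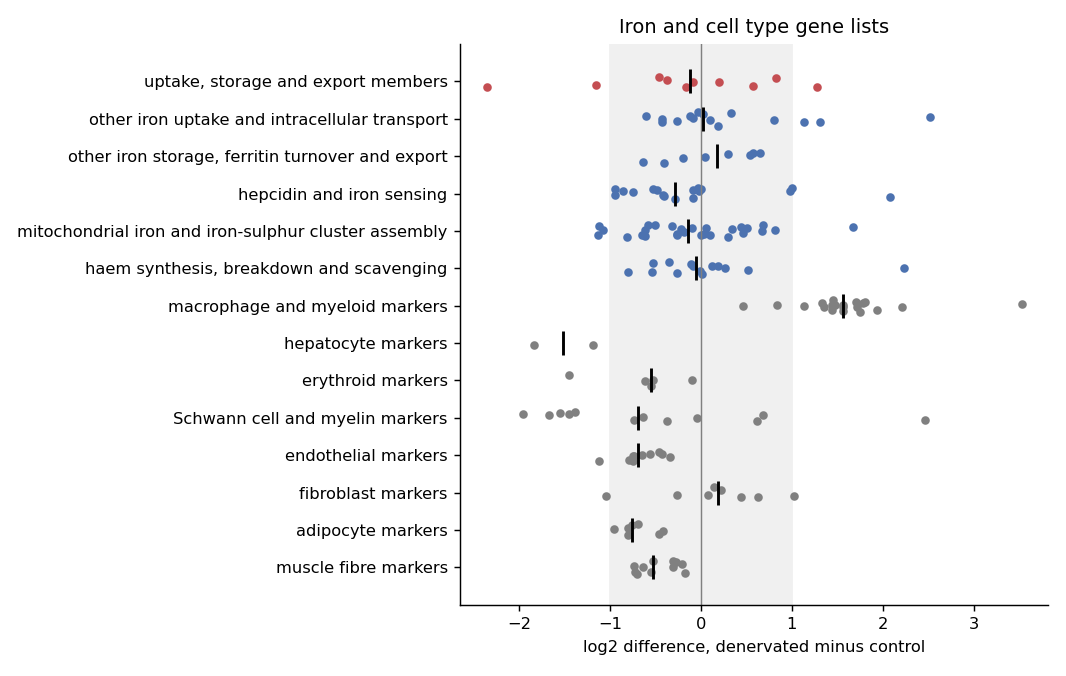
Log2 difference, denervated minus control, of every measured gene in the list of 10 (red), in the 5 lists of other iron genes (blue) and in 8 marker lists (grey), with the median of each list as a black bar and the range under 2-fold shaded. The iron lists centre near 0, with medians between -0.28 and 0.18, while the macrophage and myeloid list lies at 1.57.

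Markers of other cells were read beside these values. All 20 macrophage and myeloid markers were above 0 and 18 of them past 2-fold, with a median of 1.57. Their summed signal went from 19158 to 74584 before scaling, a scaled log2 ratio of 1.53. The brightest, Lyz2, stood at 1.48 ± 0.20 and Cd68 at 3.53 ± 0.21, and no marker of this list was at background on either array. Macrophages are rich in ferritin light chain, haem oxygenase and ferroportin. Cd163 is itself one of the 20 markers. The Ftl1 (1.28), Hmox1 (2.24) and Slc11a1 (1.31) values had the same sign as this list and the Slc40a1 value (-1.15) the opposite sign. With 1 difference per gene, nothing beyond the sign can be compared. The part of this list in them was not tested. The 5 measured erythroid markers were all below 0, 1 of them past 2-fold (median -0.55), with a summed signal of 98608 and 89676 before scaling. Epb42 and Hemgn were at background in both pools. With spike-in scaling the erythroid median was -0.15 and 1 marker was still past 2-fold lower. Slc4a1, named after its value was seen, was then above 0 (0.30). Tfrc is known to be abundant in immature red cells. The 10 endothelial markers (median -0.69) and the 7 adipocyte markers (median -0.76) were all below 0, while the 8 fibroblast markers centred on 0.19. Scaled to the spike-ins, the respective medians became -0.29, -0.36 and 0.59. The part of these cells in the Tfrc value was not tested.

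The labelled tissue and treatment were read from marker genes. All 11 muscle fibre markers were measured, with differences between -0.73 and -0.17. Their median of -0.53 depended on the scaling. It was 0.01 with quantile normalization, -0.23 with loess centring, -0.13 with spike-in scaling and -0.10 with no scaling. Their summed signals were 3904621 and 3948483 before scaling, a scaled log2 ratio of -0.42. Chrng, Chrna1 and Myog, known to be switched on by denervation, were higher by 8.37 ± 0.23, 4.57 ± 0.20 and 5.34 ± 0.20. Detection was alike, at 70.9% of probes with control RNA and 68.4% with denervated RNA. Spike-in scaling adds 0.40 to every difference and leaving out scaling adds 0.43, so differences below 0 by less than these shifts, among them those of Steap3, Slc11a2 and Fth1, have no settled direction.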

How the data were processed

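Each pool of total RNA, from 6 mice, was labelled with Cy3 (1.65 µg of cRNA, per the labels) and hybridised to 1-colour Agilent arrays. Both arrays lay on 1 slide, so group and array position cannot be told apart. The deposited spot intensity came from Agilent Feature Extraction 9.5 (the submitters' processing notes) or 9.5.3.1 (the file headers). Per the file headers it was background-subtracted and detrended, with surrogates for dim spots. The deposited value table, used as a score, tracked this intensity (CV of the ratio 0.126% and 0.127%; column medians 10 and 9), so its scale is linear with no centring.

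From 43379 non-control spots, marked outliers (87 and 81) were dropped, spots of 1 probe were averaged as log2 intensity, and each array's 75th percentile over 41174 probes was subtracted. A gene took its brightest probe that passed the background and saturation flags in both pools. For a gene detected in 1 pool only, a bound was taken against the dim probe's signal or the detection limit, whichever was higher. These bounds are given for 75th-percentile scaling only, without normexp. Errors come from the scanner software (10% for bright spots; median 0.20). RefSeq accessions (GRCm38.p6) named 23374 probes, and the rest kept array names that may be out of date. A single array per group allows no test and limits precision.

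Alternatives were 5 other scalings (median, quantile, loess, spike-in, none), normexp with offset 50 (limma 3.58.1, R 4.3.3), the deposited table, the dim-probe filter (none, or 4 times stricter), marked spots kept, and 2 other probe rules. The calculation was tested on simulated data. The 10 genes, the lists, the motifs and the threshold were chosen with earlier results of these data known. All 10 genes are named with every probe, and of each other iron list the genes past 2-fold and at least the 3 with the largest difference. Marker lists are given mainly by counts. Names outside this rule are marked.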

Additional observations from a re-analysis of the deposited data

How the results depend on the processing

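For spike-in scaling and no scaling, the changes below follow from the constant added to every difference, and for the 1.5-fold threshold from the threshold. Of the 10 genes, 1 was at least 2-fold higher; spike-in scaling made this 2 (adding Cp), no scaling 3 (adding Cp and Trf) and a threshold of 1.5-fold 2. The 2 genes at least 2-fold lower became 1 with spike-in scaling and 1 with no scaling, where Slc40a1 dropped out. The median of the 10 genes moved from -0.12 to 0.28 and 0.31 under those scalings. Of the other iron genes, 6 were at least 2-fold higher, against 13 with spike-in scaling, 13 with no scaling, 5 with normexp background and 4 with the stricter filter on dim probes. That filter leaves out Lcn2 and Erfe, and normexp lowers them to 0.88 and 0.52. On the lower side 3 were at least 2-fold lower, against 0 in both cases and 1 with loess centring, where the cause was not tested. No member that passed 2-fold changed sign. Tfrc ranged from -2.35 to -1.92 and Ftl1 from 1.28 to 1.71, both past 2-fold under all 12 alternatives. Aco1 turned negative with the mean of its probes (-0.18), and Ireb2 turned positive with it (0.14). No paired analysis was possible because each group is 1 pool on 1 array.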

Other observations

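Ferritin relatives outside the 10 genes were looked up by their array descriptions after the ferritin values were seen. Fthl17, a heavy chain relative known from the testis, gave 1458 and 1580 (-0.32 ± 0.20, or 0.08 with spike-in scaling). Ftmt, the mitochondrial ferritin, gave 26.1 and 51.4 by the probe measured on both arrays (0.54 ± 0.29). Its other probe gave 22.5 and 19.6 and was well above background on the control array only. A cDNA clone described as ferritin heavy chain, AK089251, was not well above background on either array (4.57 and 7.06).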
